A study of Mus musculus with 50 samples.

Results

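The transcriptome of mouse embryonic stem cells (ESCs) carrying a catalytically dead EZH2 was compared with that of wild-type (WT) ESCs. The comparison used 4 of the 50 samples of the series, 2 RNA-seq libraries of the WT line E14TG2a and 2 of the *Ezh2* Y726D line, and all 16739 genes on chromosomes 1 to 19 among the 18055 genes of the normalised count table. Membership followed from chromosome position alone. Of the 16739 autosomal genes, 13078 had a mean normalised count of at least 5 over the 8 RNA-seq libraries and were tested.

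Polycomb repressive complex 2 (PRC2) mono-, di- and trimethylates lysine 27 of histone H3 (H3K27) through its catalytic subunit, EZH2 or EZH1. SUZ12 and EED hold the complex together. H3K27me3 marks the starts of silent developmental genes, among them the *Hox* clusters, and the same lysine can carry acetylation (H3K27ac) at active promoters and enhancers. PRC1 binds H3K27me3 through its CBX subunits and ubiquitylates histone H2A.

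In the *Ezh2* Y726D line a tyrosine of the catalytic domain of EZH2 (Y726D names the residue and the change) was replaced by aspartate with CRISPR/Cas9 and a single-stranded template. The edit was made in *Ezh1* KO cells, so the line lacks EZH1 and makes only the mutant EZH2, whereas WT cells have both intact enzymes. Differences from WT therefore combine the point mutation, the *Ezh1* deletion and whatever else differs between the edited line and its parent, and these cannot be told apart with the libraries used. The codon of the tyrosine, TAC in WT, lies in exon 19 of 20 of the 746-codon *Ezh2* transcript, on the reverse strand at chr6:47481742-47481744 of mm9, and the last 2 bases of the exon follow it. The 63 bases around it are shown because they hold the edited codon, in capitals.
Ezh2 codon changed in Y726D (WT sequence, chr6:47481712-47481774, reverse strand): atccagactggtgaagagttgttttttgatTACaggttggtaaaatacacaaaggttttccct

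RNA was profiled by SMART-seq and counted without strand. All lines were grown without feeder cells on gelatin, in serum medium with LIF and inhibitors of GSK3 and MEK. The other 4 RNA-seq libraries, 2 of *Ezh2* KO and 2 of *Ezh1/2* dKO ESCs (both genes deleted), entered the same fit and are used below only beside the *Ezh2* Y726D values. The 2 libraries of a line are labelled as replicates. The study calls its replicates biological in general terms, and whether these libraries came from separate cultures or clones is not given in the sources used here, so p-values measure the spread between libraries, part of which may be technical. WT libraries held 3604123 and 4647106 reads over genes, and *Ezh2* Y726D libraries 4932714 and 4069424.

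The targeted genes were examined first. *Ezh1* had normalised counts of 227 and 377 in the WT libraries and 24.1 and 15.7 in the *Ezh2* Y726D libraries. The log2 fold change was -3.84 ± 0.35 (SE, n = 2 and 2, limma adjusted p = 0.00229). Each SE and p-value takes its spread from the fit of all 8 libraries, not from the 4 compared alone. The *Ezh1/2* dKO libraries stood at 14 and 20.4. *Ezh2* had 598 and 546 in WT and 422 and 613 in *Ezh2* Y726D, against 1.05 and 0.968 in *Ezh2* KO. The mutant transcript was thus present at a level that did not differ detectably from WT (log2 fold change -0.17 ± 0.39, adjusted p = 0.91), and a gene count cannot show the point mutation itself. Outside the autosomes, all 5 Y-linked genes tested were called lower in *Ezh2* Y726D, and *Uty* had 0 reads in both of its libraries against 270 and 495 in WT and 343 or more in the other lines.

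The 2 libraries of WT and the 2 of *Ezh2* Y726D differed from each other more than those of the deletion lines: the Pearson correlation of log2 values over the tested genes was 0.953 in WT and 0.953 in *Ezh2* Y726D, against 0.973 and 0.978 in *Ezh2* KO and *Ezh1/2* dKO. WT library 1 stood apart by immediate early genes. *Fos*, an AP-1 subunit, had 1876 and 13.5 in the 2 WT libraries and 16.9 and 14.5 in *Ezh2* Y726D, and *Egr1*, a serum-induced transcription factor, had 2118 and 9.63 against 7.13 and 2.24. *Fosb* had 390 and 1.93 against 1.78 and 0. None of the 14 listed ERK feedback and immediate early genes was called, although *Egr1* had a log2 fold change of -4.87 (adjusted p = 0.273). Among *Ezh2* Y726D libraries, the trophectoderm factor *Cdx2* (33 and 440, WT 70.7 and 9.63), the ERK inhibitor *Spry4* (142 and 701) and the ERK-induced factor *Etv4* (42.8 and 436) were high in library 2 only.

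Between *Ezh2* Y726D and WT, 222 autosomal genes were called higher (1.70% of those tested) and 134 lower (1.02%), at an adjusted p under 0.1 and at least a 2-fold change in limma. In bulk libraries, more cells with a transcript and more transcript per cell cannot be told apart. The genes called higher had a median log2 fold change of 2.08 and those called lower of -2.04, whereas the median over all 13078 genes was -0.01. Normalised counts of the genes called higher were low in WT, with a median of 23.9 in WT and 102 in *Ezh2* Y726D. Those called lower went from a median of 139 to 28.4. Calls in either direction made up 356 genes (2.72% of those tested). Both *Ezh2* Y726D libraries lay beyond both WT libraries in all 356, which a 2-fold change that passes the test nearly fixes, and in 4853 of the 13078 genes tested. These counts depended on the estimate of spread: with the 4 libraries of WT and *Ezh2* Y726D alone, 20 genes were called higher and 8 lower. Without *Ezh2* Y726D library 1 the fit called 208 and 303, and without library 2 it called 116 and 83. Without WT library 1 it called 231 and 87.

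**Figure D1:**
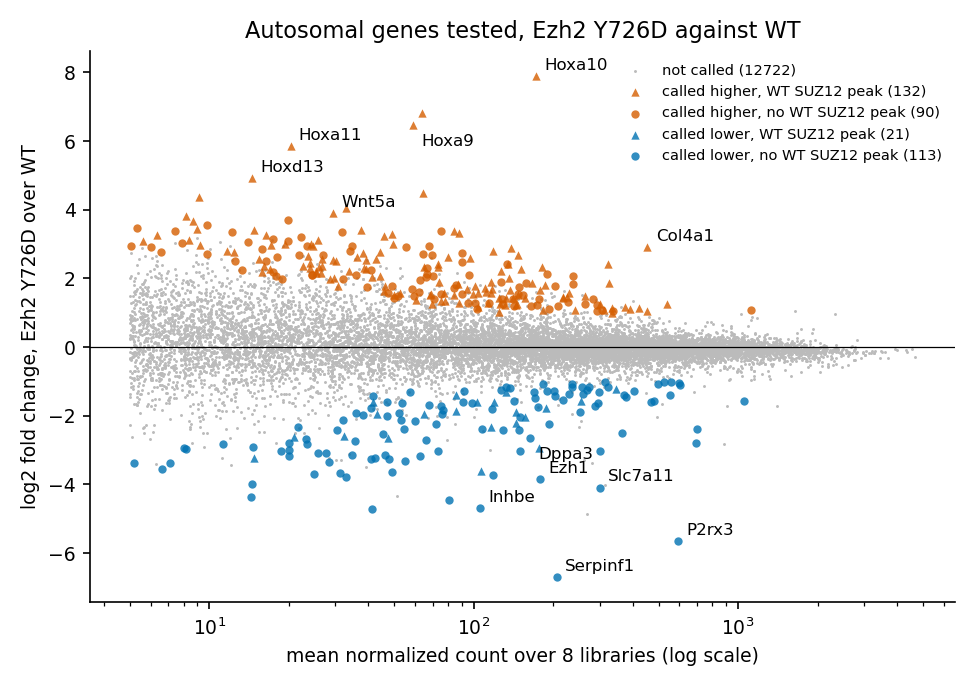
Each point is 1 of the 13078 autosomal genes tested, placed by its mean normalised count over 8 libraries (log axis) and its log2 fold change of Ezh2 Y726D over WT. Orange marks the 222 genes called higher and blue the 134 called lower, with triangles for genes bound by SUZ12 in WT (a peak up to 5 kb from a start site). Hoxa10 at 7.90 and Serpinf1 at -6.71 are the extremes.

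The largest rises were in the posterior *HoxA* cluster, whose homeobox factors pattern the limbs and the posterior body and are silent in ESCs. *Hoxa10* (chr6:52181196-52190853 of mm9) had 2.67 and 0 in the WT libraries and 424 and 493 in *Ezh2* Y726D, a log2 fold change of 7.90 ± 0.83 (adjusted p = 0.00574). With 2 reads in WT against 916, the ratio was 406 (95% counting interval 112 to 3361). *Hoxa9* went from 0 and 2.89 to 145 and 210, a log2 fold change of 6.48 ± 0.70 (adjusted p = 0.0059), with 3 WT reads and a ratio of 104 (35.2 to 506). *Hoxa7*, further toward the anterior end, already gave some reads in WT and went from 5.34 and 6.74 to 106 and 232 (4.49 ± 0.49, adjusted p = 0.0059). The groups did not overlap in any of the 3 genes, and in each the *Ezh2* Y726D values were at least an order of magnitude above WT.

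*Hoxa11* had no read in either WT library and 44.6 and 71.6 normalised counts in *Ezh2* Y726D, at least 33.7-fold higher when 3 reads over the 2 WT libraries are taken as the floor (adjusted p = 0.00933). Its antisense transcript *Hoxa11os*, which overlaps it, went from 1.33 and 0 to 158 and 189 (log2 fold change 6.83 ± 0.57, adjusted p = 0.00175), with 1 read in WT and a ratio of 307 (54.7 to 12160). Reads were counted without regard to strand, so those from the shared stretch cannot be assigned to either. *Hoxa7* likewise overlaps *2700086A05Rik* and *Hoxa9* holds *Mir196b*. In all 5 of these transcripts the *Ezh2* Y726D libraries lay far above every WT and *Ezh2* KO library.

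*Hoxd13*, the most posterior gene of the *HoxD* cluster and a regulator of digit patterning, had 0 reads in WT and 27.6 and 31.3 in *Ezh2* Y726D, at least 17.4-fold higher (adjusted p = 0.0102). *Hoxb7* also had no WT read, with 20.5 and 6.71 in *Ezh2* Y726D, at least 8.58-fold higher (adjusted p = 0.0598), and lost its call when either WT library or *Ezh2* Y726D library 1 was left out. The 250 bases before the start sites of *Hoxa10* and *Hoxd13* are shown because SUZ12 peaks of WT cells overlapped both. An H3K27ac peak of *Ezh2* Y726D cells overlapped that of *Hoxa10*, and no SUZ12 peak of *Ezh2* Y726D cells overlapped either. The start site is the outermost RefSeq start of each gene (GRCm38.p6), which need not be the one used in these cells, and the bases match mm9 exactly. Capitals mark CpG dinucleotides, 7 in *Hoxa10* and 31 in *Hoxd13* against a median of 14 over 12188 autosomal promoters.
Hoxa10 (chr6:52190854-52191103, reverse strand): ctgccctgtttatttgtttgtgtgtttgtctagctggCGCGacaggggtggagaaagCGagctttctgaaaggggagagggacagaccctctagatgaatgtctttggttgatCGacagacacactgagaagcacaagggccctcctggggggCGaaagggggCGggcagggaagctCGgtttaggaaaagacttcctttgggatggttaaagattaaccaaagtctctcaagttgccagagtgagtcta
Hoxd13 (chr2:74506032-74506281, forward strand): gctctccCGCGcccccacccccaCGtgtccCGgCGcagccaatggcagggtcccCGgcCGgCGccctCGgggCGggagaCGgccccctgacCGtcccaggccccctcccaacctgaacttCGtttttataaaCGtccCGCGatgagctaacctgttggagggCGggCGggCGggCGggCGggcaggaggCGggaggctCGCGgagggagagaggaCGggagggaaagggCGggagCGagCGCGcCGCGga

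Of the 39 *Hox* genes, 36 were in the table and 20 passed the filter on low counts, of which 10 were called higher and none lower, beside 1.70% and 1.02% of all tested genes. The median log2 fold change was 2.90 over the 20 tested and 1.91 over all 36, against -0.01 for all autosomal genes tested. Both *Ezh2* Y726D libraries lay above both WT libraries in 23 of the 36 genes, beside 18.5% of all autosomal genes, and below them in 0, beside 16.4%. The other called members were *Hoxa3* (3.43), *Hoxc10* (3.42), *Hoxd8* (3.12) and *Hoxd10* (2.97). Summed over the 36 genes, the normalised count reached at most 204 in a WT library, whereas the *Ezh2* Y726D libraries had 1163 and 1374. Genes of the same clusters differed: *Hoxb9* had 20.01 and 29.8 in WT and 25.9 and 20.1 in *Ezh2* Y726D, and *Hoxa4* and *Hoxb4* gave at most 1 read in any WT or *Ezh2* Y726D library.

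Beyond the *Hox* genes, the 12 largest rises held *Olig3*, *Nfia*, *Wnt5a*, *Scn4b* and *Pla2g4a*. *Olig3*, a neural progenitor factor of the dorsal spinal cord, had no WT read and 16 and 24.6 in *Ezh2* Y726D, at least 11.8-fold higher (adjusted p = 0.0249). *Wnt5a*, a ligand of non-canonical Wnt signalling, went from 6.67 and 1.93 to 69.5 and 69.4 (3.89 ± 0.58, adjusted p = 0.019). *Nfia*, a nuclear factor of glial development, had 0 and 9.63 in WT and 43.7 and 64.9 in *Ezh2* Y726D (4.06 ± 0.91, adjusted p = 0.0678), with its 2 WT libraries well apart. *Olig3* and *Nfia* were not called without *Ezh2* Y726D library 2.

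*Pla2g4a*, a cytosolic phospholipase that releases arachidonic acid, went from 1.33 and 0.963 to 29.4 and 24.6 (3.71 ± 0.51, adjusted p = 0.0139, ratio 24.4 with an interval of 6.44 to 207) and was alone among the 12 in having no SUZ12 peak near its start sites in WT. *Scn4b*, a sodium channel subunit, rose from 1.33 and 0 to 15.2 and 28 (3.82 ± 0.90, adjusted p = 0.0773, ratio 37.3 with an interval of 6.33 to 1507) and lost its call without WT library 2 or *Ezh2* Y726D library 2. Of the 15 Polycomb loci that the study displays, 11 were tested. Called higher were 6 (*Hoxa10*, *Hoxa11*, *Hoxa7*, *Olig3*, *Wnt5a* and *Hoxb7*), beside 1.70% of all tested genes, and none was called lower, beside 1.02%. The median was 3.69 over the 11 and 2.17 over all 15. The study selected these loci itself, so they are not independent evidence of a direction. *Fgfr3* (40.02 and 56.8 in WT, 62.4 and 42.5 in *Ezh2* Y726D) and *Mmp25* (13.3 and 11.6, 21.4 and 8.95) overlapped between the lines, and *Foxd4*, *Hmx3* and *Six2* gave at most 3 reads in any WT or *Ezh2* Y726D library.

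**Figure D2:**
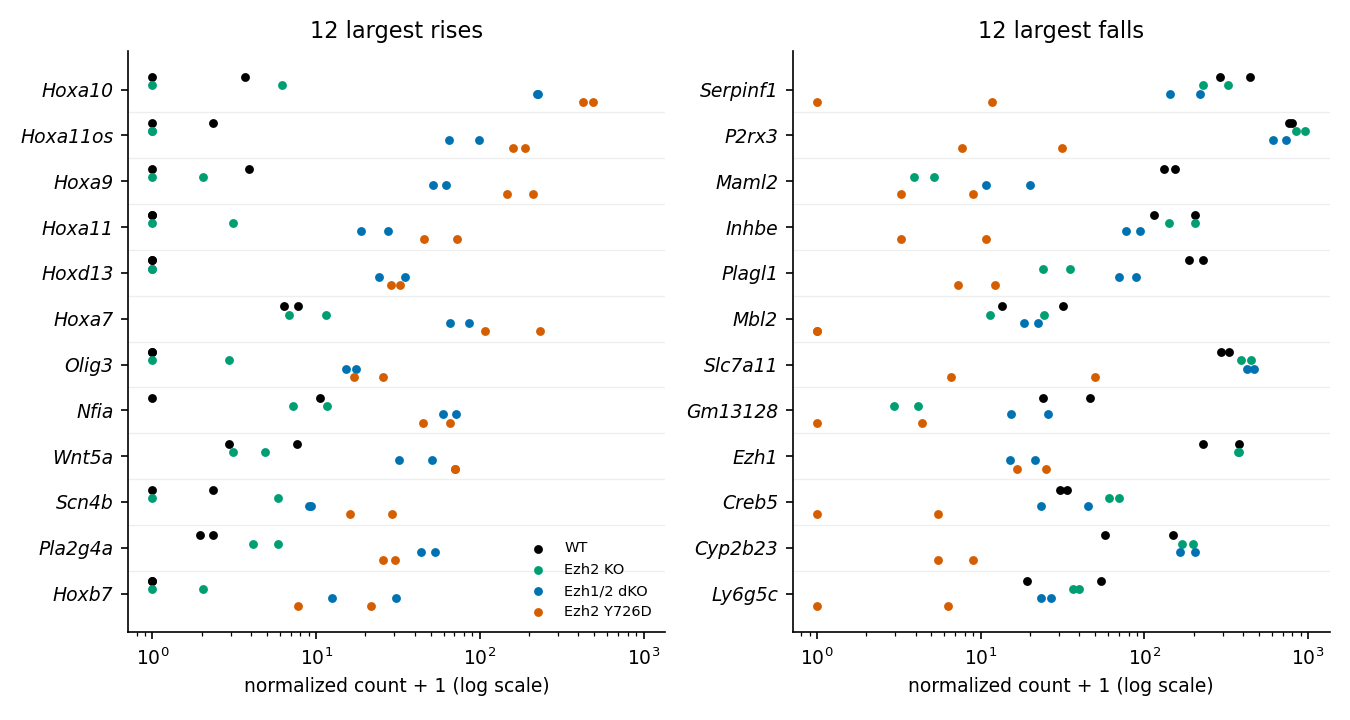
The 12 largest rises (left) and falls (right) among called genes are shown with 1 point per library, as normalised count + 1 on a log axis, with Ezh2 KO in green. In every row the 2 Ezh2 Y726D points (orange) lie beyond both WT points (black), and in the left panel the Ezh1/2 dKO points (blue) lie above both WT points too, whereas in the right panel they lie near WT for genes such as P2rx3 and Slc7a11.

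Genes were next grouped by SUZ12 occupancy in WT cells. A SUZ12 peak (p of at most 1e-10 in the deposited list) lay within 5 kb of a start site of 2936 autosomal genes, and 1911 of them were tested. Of these, 132 were called higher (6.91%) and 21 lower (1.10%), beside 1.70% and 1.02% of all genes. Among the 11167 tested genes without such a peak, 90 were called higher (0.81%) and 113 lower (1.01%). The median log2 fold change was 0.44 in the bound genes, 0.43 over all 2936 without the filter, and -0.03 in the unbound genes. Both *Ezh2* Y726D libraries exceeded both WT libraries in 1028 of the 2936 bound genes (35.01%) and fell below them in 263 (8.96%), whereas in the 13803 unbound genes the shares were 14.96% and 17.98%. Without *Ezh2* Y726D library 2, 76 bound genes were called higher and 9 lower, without library 1 the number lower was 41, and without WT library 1 it was 10. The peak lists come from 1 library each, and list membership was not tested between lines.

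The shift of the bound genes was found at low and middle levels. Their median was 0.56 at mean counts from 5 to 20 (710 genes), 0.48 from 20 to 100 (713 genes), 0.34 from 100 to 500 (417 genes) and 0.03 at 500 and over (71 genes). The unbound genes of the same ranges had medians of 0.08, -0.01, -0.02 and -0.07. Most bound genes did not change detectably: 1758 of the 1911 tested were not called, and 514 of the 1911 had an unadjusted p under 0.05, which 14.3% of all tested genes had.

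**Figure D3:**
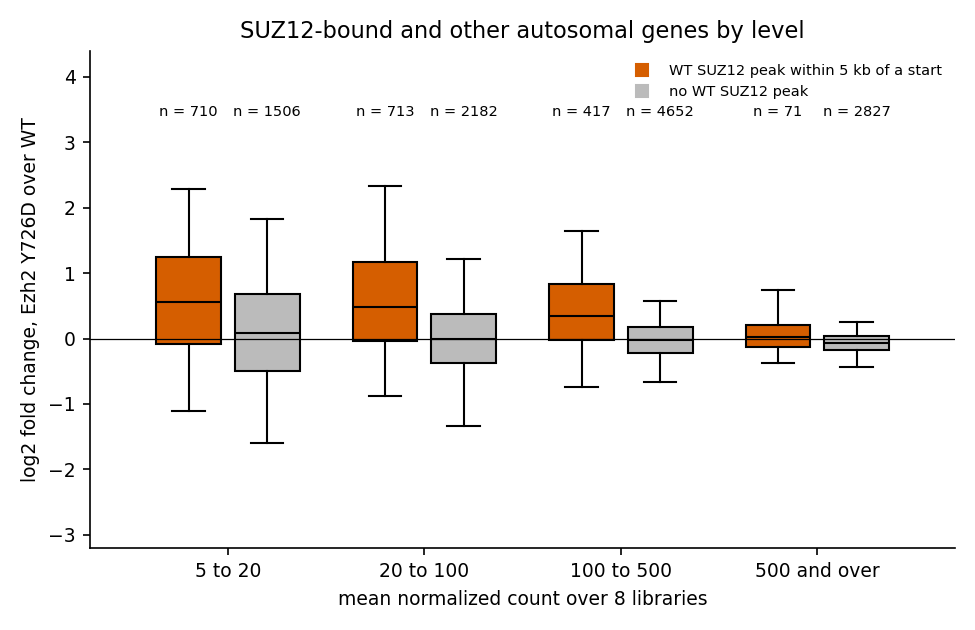
Boxes show the quartiles and median log2 fold change of Ezh2 Y726D over WT for autosomal genes bound (orange) and not bound (grey) by SUZ12 in WT cells, in 4 ranges of mean normalised count; whiskers run from the 5th to the 95th percentile and n is the number of genes. The orange medians lie at 0.56, 0.48, 0.34 and 0.03.

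Genes that kept a SUZ12 peak in *Ezh2* Y726D cells and genes that did not had like values, with no test of the difference. Of the WT-bound genes, 1796 kept a SUZ12 peak in *Ezh2* Y726D, and of the 1056 tested 74 were called higher (7.01%) and 16 lower, with a median of 0.45. The 1140 genes without a peak in *Ezh2* Y726D had 58 of 855 tested called higher (6.78%), 5 lower and a median of 0.44. Bound genes that also had a WT H3K27me3 peak had a median of 0.49, with 126 of 1701 called higher (7.41%) and 16 lower. Bound genes without one had a median of 0.13, with 6 of 210 called higher (2.86%) and 5 lower (2.38%). Genes with WT H3K27me3 but no SUZ12 peak lay between, with a median of 0.23, 27 of 760 called higher (3.55%) and 8 lower. Beside these classes, 1.70% of all tested genes were called higher and 1.02% lower.

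An H3K27ac peak of *Ezh2* Y726D cells lay near 1205 of the tested bound genes, and 104 of those were called higher (8.63%). Of the 706 bound genes without H3K27ac 28 were called higher (3.97%), beside 1.70% of all tested genes. The medians of the 2 classes were 0.43 and 0.47. Of the 222 genes called higher, 158 had such an H3K27ac peak (71.2%), beside 72.6% of all tested genes, 153 had had H3K27me3 in WT (68.9%, beside 18.8%) and 0 had H3K27me3 in *Ezh2* Y726D, where the list reached 191 tested genes in all. A WT list of H3K27ac was not used here, so gain of acetylation cannot be read from these shares.

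No autosomal PRC2 subunit gene was called apart from *Ezh1*. *Suz12* had 603 and 530 in WT and 531 and 513 in *Ezh2* Y726D, *Eed* 1211 and 1210 against 1087 and 1252, and *Rbbp4*, a histone-binding subunit, 1872 and 1661 against 1355 and 1470. None of the 6 accessory subunits was called; *Jarid2* (2166 and 2890, then 3239 and 2614) and *Mtf2* (2963 and 2720, then 2466 and 2306) had log2 fold changes of 0.22 and -0.25. The acetyltransferase genes *Ep300* (-0.07) and *Crebbp* (0.07) were not called either.

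PRC1 showed 2 genes called higher among 19 tested (beside 1.70% of all tested genes), both CBX subunits with WT SUZ12 peaks. *Cbx8* went from 18.7 and 3.85 to 79.4 and 73.8 (2.99 ± 0.63, adjusted p = 0.0545) and *Cbx2* from 273 and 194 to 433 and 563 (1.09 ± 0.22, adjusted p = 0.048), and both lost their call without WT library 2 or without *Ezh2* Y726D library 2. *Cbx7*, whose product is the main CBX protein of ESCs, had 559 and 632 against 669 and 581 (log2 fold change 0.07), and the catalytic subunit gene *Rnf2* 1398 and 1293 against 1400 and 1605. The list median was 0.07.

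The transcripts that define naive ESCs were present in both lines (values of WT against *Ezh2* Y726D). All 21 tested naive pluripotency genes were detected in each line, with a median log2 fold change of -0.08. Of these 1 was called lower, beside 1.02% of all tested genes. *Pou5f1* had 1916 and 1486 in WT and 1496 and 1703 in *Ezh2* Y726D, *Nanog* 1010 and 846 against 806 and 848, and *Tfcp2l1* 5372 and 5172 against 4026 and 4605. The exception was *Dppa3* (Stella), a maternal factor that protects methylated DNA in the early embryo: it fell from 176 and 106 to 21.4 and 20.1 (-2.66 ± 0.33, adjusted p = 0.0113), below the 283 and 414 of *Ezh1/2* dKO and the 170 and 114 of *Ezh2* KO. The difference between *Ezh2* Y726D and *Ezh1/2* dKO was -3.98 (adjusted p = 0.0015).

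Among 11 formative and primed genes 1 was called higher, beside 1.70% of all tested genes. This was *Dnmt3l*, a cofactor of de novo DNA methylation, which rose from 942 and 686 to 1667 and 1703 (1.07 ± 0.23, limma adjusted p = 0.0614). *Dnmt3b* had 1011 and 489 against 641 and 1238, overlapping between lines. *Dnmt3l* overlaps *Aire*, which was also called higher, and reads were counted without strand. *Dnmt3l* was not called without WT library 2 or without *Ezh2* Y726D library 2.

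Of 6 tested genes that mark the transient 2-cell-like state, 3 were called lower (beside 1.02% of all tested genes) and none higher (beside 1.70%). *Tdpoz3* (66.7 and 29.8 in WT, 3.57 and 3.36 in *Ezh2* Y726D), *Zscan4d* (301 and 125, then 21.4 and 59.3) and *Zscan4c* (213 and 105, then 17.8 and 42.5) were called, with log2 fold changes of -3.36, -2.41 and -2.40 and adjusted p of 0.023, 0.0679 and 0.048. Without WT library 1 neither *Zscan4* gene was called, and without *Ezh2* Y726D library 1 *Zscan4d* was not. *Zscan4* and *Tdpoz* genes are near-identical copies, so the split of reads among them is uncertain and the 3 calls are not independent. Their level varied between lines more widely than this: *Zscan4c* stood at 4.18 and 4.84 in *Ezh2* KO and 206 and 265 in *Ezh1/2* dKO.

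Some markers of differentiated lineages were called higher. Of 12 tested primitive endoderm genes, *Col4a1*, *Col4a2* and *Amn* were called higher (beside 1.70% of all tested genes) and none lower (beside 1.02%). The median was 1.00 (0.41 over all 20). *Col4a1* and *Col4a2*, which encode the type IV collagen chains of basement membranes from a shared promoter, went from 147 and 80.9 to 718 and 954 (2.91 ± 0.36, adjusted p = 0.0102) and from 28 and 19.3 to 138 and 158 (2.62 ± 0.33, adjusted p = 0.0113). *Amn*, a subunit of the endocytic receptor of visceral endoderm, went from 6.67 and 7.70 to 50.8 and 42.5 (2.54 ± 0.45, adjusted p = 0.0324).

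The transcription factors *Gata6* and *Sox17* of that lineage, and *Gata4* in WT, were near the floor of 3 reads, which corresponds to 2.67 to 4.0 normalised counts in these 4 libraries. *Gata4* had 2.67 and 4.81 in WT and 14.3 and 15.7 in *Ezh2* Y726D (1.79, adjusted p = 0.161), *Gata6* 0 and 1.93 against 3.57 and 1.12, and *Sox17* 0 and 2.89 against 0 and 0. *Afp* had no read in any of the 4 libraries. In *Gata4* both *Ezh2* Y726D libraries lay above both WT libraries, although the gene was not called. Of the 17 tested collagen and laminin genes 3 were called higher, beside 1.70% of all tested genes. Besides *Col4a1* and *Col4a2*, already counted above, this was *Col11a1* (18.7 and 7.70, then 47.3 and 51.5, 1.94 ± 0.42, limma adjusted p = 0.0598). *Col11a1* was not called without WT library 2 or *Ezh2* Y726D library 2. *Col18a1* reached an adjusted p of 0.0339 with a log2 fold change of 0.95, just under the limit of 1.

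In the trophectoderm list 4 of 11 tested genes were called higher (beside 1.70% of all tested genes) and none lower (beside 1.02%), with a median of 1.59. The simple-epithelium keratins *Krt8* (74.7 and 132, then 259 and 348) and *Krt18* (56 and 50.1, then 194 and 147) had log2 fold changes of 1.59 ± 0.33 and 1.65 ± 0.26 (adjusted p = 0.0495 and 0.0214), *Krt8* not being called without WT library 1 or *Ezh2* Y726D library 2. The factors *Gata3* (50.7 and 21.2, then 124 and 107) and *Tfap2a* (24 and 54.9, then 136 and 91.7) had 1.78 ± 0.45 and 1.59 ± 0.38 (adjusted p = 0.0928 and 0.0827). *Gata3* lost its call without any 1 of the libraries except WT library 1, and *Tfap2a* without any 1 except WT library 2. *Elf5*, a defining trophoblast factor, had at most 1 read in each library, and *Tead4* (93.4 and 101, then 107 and 80.5) had a log2 fold change of -0.06. Summed over the 13 genes, the list had 707 and 573 in WT against 1120 and 1668 in *Ezh2* Y726D, with *Cdx2* giving much of library 2. *Gata3* overlaps *4930412O13Rik*. The part of cells of another type in these values was not tested.

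*Tbx15*, a T-box factor of skeletal development, went from 1.33 and 5.78 to 36.6 and 25.7 (2.99 ± 0.57, limma adjusted p = 0.042). With *Gata3* it was called higher among 12 tested GATA, Forkhead, Sox and T-box genes, beside 1.70% of all tested genes. The list median was 1.69 (1.17 over all 28). None of the 11 tested primitive streak and mesoderm genes was called: *Nodal* had 834 and 945 against 917 and 765, *Lefty2* 1035 and 1547 against 1828 and 1250, and *T* (brachyury) 12 and 11.6 against 5.35 and 51.5. Of 9 tested neural genes *Olig3* was called higher, beside 1.70% of all tested genes, and *Tubb3* had 1235 and 464 against 465 and 814.

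*Wnt5a* was the only call among 7 tested Wnt ligands, beside 1.70% of all tested genes called higher. *Wnt5b* had 72 and 59.7 against 57.1 and 135. Of 7 tested BMP and TGF-beta ligands 2 were called higher, beside 1.70% of all tested genes. *Bmp4* went from 313 and 373 to 736 and 688 (1.06 ± 0.15, limma adjusted p = 0.0161, log2 fold change 0.93 without WT library 1). *Bmp8b* went from 12 and 10.6 to 33.9 and 90.6 (2.20 ± 0.50, limma adjusted p = 0.0695). *Bmp8b* was not called without any 1 of the libraries except *Ezh2* Y726D library 1. *Bmp4*, which overlaps *Gm15217*, stood at 343 and 334 in *Ezh1/2* dKO and differed from *Ezh2* Y726D by 1.07 on the log2 scale (adjusted p = 0.0163).

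Of 17 tested germline genes 3 were called higher, beside 1.70% of all tested genes. *Brdt*, a testis bromodomain protein, went from 0 and 0.963 to 8.92 and 15.7 (3.20 ± 0.56, adjusted p = 0.0324), and the piRNA pathway genes *Piwil2* and *Mael* from 62.7 and 59.7 to 197 and 168 (1.56 ± 0.21, adjusted p = 0.0139) and from 104 and 71.2 to 225 and 274 (1.52 ± 0.30, adjusted p = 0.0467). None of the 3 had a WT SUZ12 peak. *Mael* was not called without WT library 2, and neither *Mael* nor *Brdt*, which had 1 read in WT and 24 in *Ezh2* Y726D (ratio 21.3, 3.47 to 876), without *Ezh2* Y726D library 2. *Ddx4* had 113 and 93.4 against 132 and 80.5.

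Of 17 tested imprinted genes, *Plagl1* was called lower and *Phlda2* higher, beside 1.02% and 1.70% of all tested genes. *Plagl1*, a zinc-finger factor of an imprinted gene network, fell from 227 and 187 to 6.24 and 11.2 (-4.46 ± 0.39, adjusted p = 0.00197), and was also below WT in *Ezh2* KO (23 and 33.9) and *Ezh1/2* dKO (88.2 and 69.3). *Phlda2*, a brake on placental growth, went from 211 and 195 to 595 and 398 (1.26 ± 0.23, adjusted p = 0.0342; 0.97 without *Ezh2* Y726D library 1). *Thy1*, a surface glycoprotein, was called higher among 3 tested genes of the fibroblast list, beside 1.70% of all tested genes (10.7 and 4.81, then 84.7 and 76.1, 3.30 ± 0.44, limma adjusted p = 0.013). *Lum*, *Dcn* and *S100a4* had 0 reads in all 4 libraries, and the summed level of the 10 autosomal genes of that list stood at 5376 and 6306 in the WT libraries, against 5394 and 4769 in *Ezh2* Y726D, most of it *Fn1*.

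**Figure D4:**
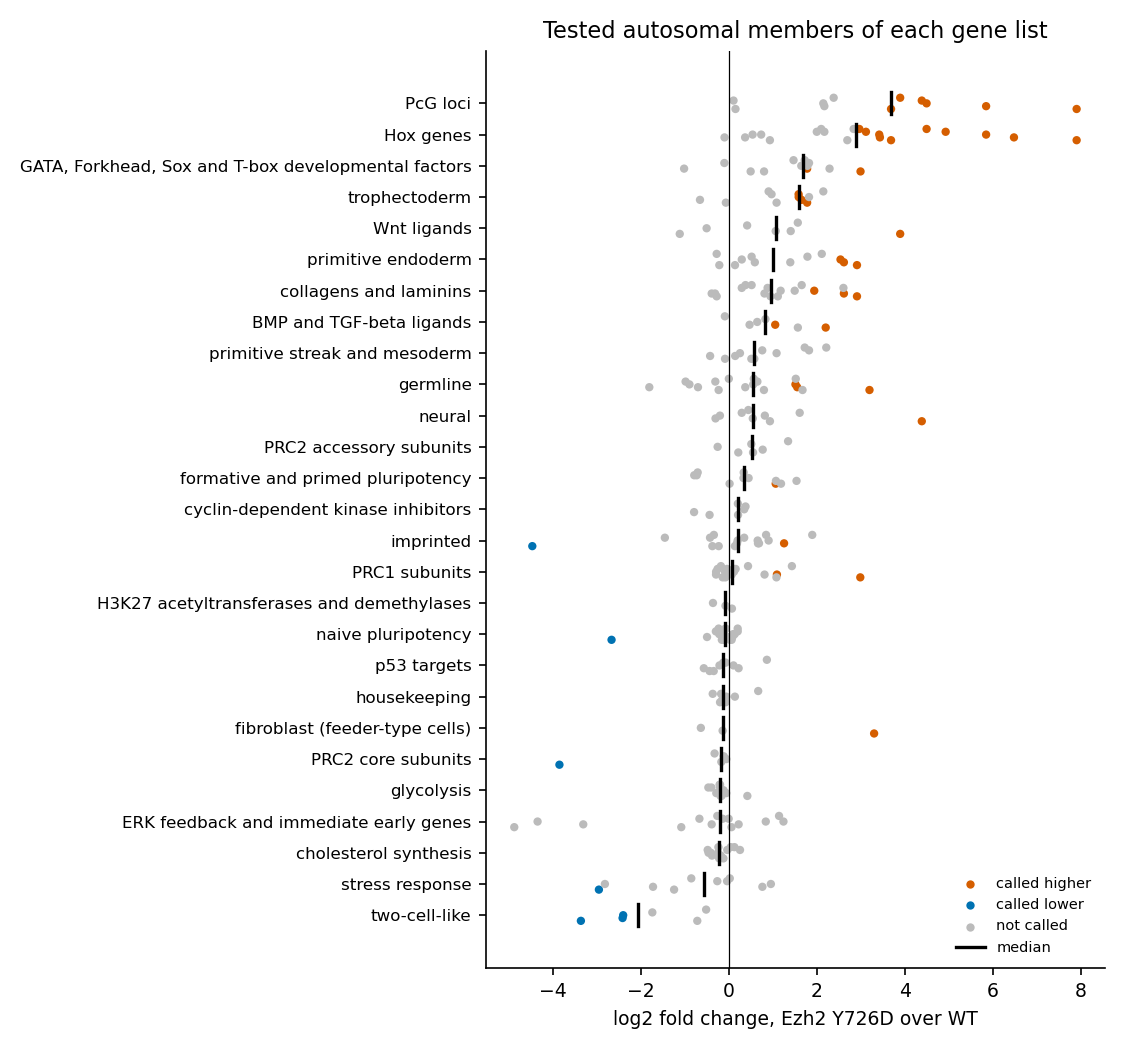
Each row is a gene list, each point the log2 fold change of Ezh2 Y726D over WT of 1 tested autosomal member, and each black bar the median of the list. Orange points were called higher and blue points lower; the Polycomb loci (3.69) and Hox genes (2.90) have the highest medians and the 2-cell-like genes (-2.07) the lowest.

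The largest fall was that of *Serpinf1*, which encodes the secreted factor PEDF: 443 and 287 in WT and 10.7 and 0 in *Ezh2* Y726D, a log2 fold change of -6.71 ± 0.88 (adjusted p = 0.0124). *P2rx3*, an ATP-gated ion channel of sensory neurons, fell from 791 and 763 to 30.3 and 6.71 (-5.65 ± 0.50, adjusted p = 0.00197). The lowest count in any library of the other 3 lines was 142 for *Serpinf1* and 611 for *P2rx3*, so neither group overlapped. *P2rx3* overlaps *Ssrp1*, from which it cannot be told apart without strand where they share bases.

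*Maml2*, a coactivator of Notch receptors, fell from 153 and 131 to 8.02 and 2.24 (-4.72 ± 0.60, adjusted p = 0.0113), and both other mutant lines were low too, at 4.18 and 2.90 in *Ezh2* KO and 19 and 9.77 in *Ezh1/2* dKO. *Mbl2*, a lectin of the complement pathway, had 30.7 and 12.5 in WT and no read in either *Ezh2* Y726D library, at least 13.5-fold lower (adjusted p = 0.0167). The falls of *Gm13128* (-4.0, with 3 reads left, ratio 0.0459, 0.0092 to 0.141), *Creb5* (-3.78), *Cyp2b23* (-3.72) and *Ly6g5c* (-3.68) complete the 12, with *Creb5*, a factor of the CREB family, at 29.3 and 32.7 in WT and 4.46 and 0 in *Ezh2* Y726D. *Gm13128* was not called without WT library 1, *Creb5* without either WT library and *Ly6g5c* without WT library 1 or *Ezh2* Y726D library 2. The 12 include *Plagl1* and *Ezh1*, the gene deleted in this line. None of the 12 had a SUZ12 peak near a start site in WT cells. Of all 134 genes called lower 21 had one (15.7%), beside 14.6% of all tested genes.

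The 12 largest falls also held *Slc7a11* and *Inhbe*. *Slc7a11*, the cystine transporter subunit xCT, fell from 328 and 291 to 49 and 5.59 (-4.09 ± 0.70, adjusted p = 0.0324), and *Inhbe*, an activin subunit, from 113 and 202 to 9.81 and 2.24 (-4.69 ± 0.54, adjusted p = 0.00829). *Atf3*, a stress-induced transcription factor, fell from 391 and 129 to 63.3 and 12.3 (-2.95 ± 0.69, adjusted p = 0.0765). It was the only call among 10 stress-response genes, whose median was -0.55, beside 1.02% of all tested genes called lower. *Atf3* was not called without WT library 1 (log2 fold change -2.15) or without *Ezh2* Y726D library 2 (-1.81).

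Several listed members were much lower in *Ezh2* Y726D library 2 than in library 1. *Chac1*, a glutathione-degrading enzyme, had 1092 and 896 in WT and 481 and 40.3 in *Ezh2* Y726D (-2.81, adjusted p = 0.146). *Trib3*, a pseudokinase, had 1050 and 1156 against 682 and 163 (-1.72, adjusted p = 0.134), and *Sesn2*, a sestrin of amino-acid sensing, 1541 and 1763 against 1124 and 743 (-0.85, adjusted p = 0.0588). *Asns*, asparagine synthetase, had 2919 and 2323 against 2222 and 2130 (-0.26, adjusted p = 0.423). In *Ezh1/2* dKO, *Chac1* stood at 1105 and 1117 and *Trib3* at 923 and 955.

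The 250 bases before the start sites of *Slc7a11*, *Inhbe* and *Atf3* are shown because each held the 8 letters of an element bound by heterodimers of ATF4 and C/EBP factors, TGATGCAA or its reverse complement TTGCATCA, in capitals. The letters were chosen after the values of these genes were seen. They were searched on both strands in the 12188 autosomal promoters that matched a gene by name and chromosome (72.8% of the autosomal genes). The letters occurred in 67 of these promoters (0.55%). The promoter of *Chac1* held them once, and those of *Trib3*, *Sesn2*, *Asns* and *Ddit3* did not hold these exact letters in this window.
Slc7a11 (chr3:50247536-50247785, reverse strand): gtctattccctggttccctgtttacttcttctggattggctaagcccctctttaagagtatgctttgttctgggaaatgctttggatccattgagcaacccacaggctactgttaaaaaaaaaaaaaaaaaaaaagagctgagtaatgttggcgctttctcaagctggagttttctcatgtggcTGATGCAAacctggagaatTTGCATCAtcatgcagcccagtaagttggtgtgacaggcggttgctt
Inhbe (chr10:126788905-126789154, reverse strand): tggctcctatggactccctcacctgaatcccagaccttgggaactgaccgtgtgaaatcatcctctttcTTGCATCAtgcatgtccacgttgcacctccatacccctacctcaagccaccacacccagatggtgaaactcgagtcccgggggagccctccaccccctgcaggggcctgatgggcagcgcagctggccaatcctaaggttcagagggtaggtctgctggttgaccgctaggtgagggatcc
Atf3 (chr1:193007213-193007462, reverse strand): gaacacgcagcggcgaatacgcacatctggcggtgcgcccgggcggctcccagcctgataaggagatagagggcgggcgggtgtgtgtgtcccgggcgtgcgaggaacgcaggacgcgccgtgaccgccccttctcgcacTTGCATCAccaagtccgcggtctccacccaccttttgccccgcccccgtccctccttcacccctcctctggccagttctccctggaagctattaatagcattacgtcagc
Of the 67 genes 54 were tested. Besides the 3 genes shown, *Serpinf1*, *Fgf21*, *Pdzd7* and *Serpinb6c* were called lower and *Fgl2* higher, and since the letters were picked from genes that fell, no share of calls is read from them. A match is a description of the letters, not of binding.

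Growth and metabolic lists gave no call. None of 9 p53 target genes, 6 cyclin-dependent kinase inhibitors, 14 glycolysis genes, 15 cholesterol synthesis genes and 9 housekeeping genes tested was called, with list medians from -0.22 to 0.21. *Cdkn1a*, a p53-induced cell-cycle inhibitor, had 1016 and 1109 against 760 and 812 (-0.43), *Cdkn1b* 219 and 305 against 237 and 94, *Ccng1* 1589 and 2236 against 1706 and 1557, *Eno1* 3471 and 2441 against 2237 and 2840, *Sqle* 1391 and 1026 against 790 and 1067, and *Actb* 3235 and 2257 against 2209 and 2749. The tumour suppressor locus *Cdkn2a*, a known Polycomb target, had 36 and 21.2 against 43.7 and 30.2 (0.38, adjusted p = 0.748).

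*Ezh2* Y726D was set against *Ezh1/2* dKO, which shares the *Ezh1* deletion and also lacks EZH2. A catalytically dead enzyme and its loss are thus compared together with whatever else differs between the 2 lines, and these cannot be told apart. Against *Ezh1/2* dKO the median log2 difference was -0.36 on chromosome 12 and -0.12 on chromosome 4. In the same fit 13.1% of the tested autosomal genes had an unadjusted p under 0.05, and 25 genes were called higher in *Ezh2* Y726D than in *Ezh1/2* dKO (0.191% of those tested) and 179 lower (1.37%). This comparison shares its *Ezh2* Y726D libraries with that against WT, so the values of single genes are given side by side. *Hoxa10* stood at 226 and 223 in *Ezh1/2* dKO and 424 and 493 in *Ezh2* Y726D, a difference of 1.02 on the log2 scale (adjusted p = 0.671). *Hoxa9* (61 and 50.6 against 145 and 210, 1.64, adjusted p = 0.362) and *Hoxd13* (33.8 and 23.1 against 27.6 and 31.3, 0.07, adjusted p = 0.976) did not pass the test either.

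Against *Ezh1/2* dKO 0 of the 12 largest rises and 8 of the 12 largest falls were called, beside 0.191% higher and 1.37% lower of all genes tested. These 24 genes were picked as extreme in the same *Ezh2* Y726D libraries, so the counts are a description. The falls include *Ezh1*, which is deleted in both lines, so the lack of a call for it follows from the design. *P2rx3* had 611 and 737 in *Ezh1/2* dKO, a difference of -5.43 (adjusted p = 0.00236), *Serpinf1* 142 and 218 (-5.69, adjusted p = 0.022) and *Slc7a11* 464 and 425 (-4.62, adjusted p = 0.0215). The counts over all tested genes rested on both *Ezh1/2* dKO libraries, since leaving out either left 1 gene called higher and 14 (library 1) or 9 (library 2) called lower. Without *Ezh2* Y726D library 1 the counts were 60 and 410, and without library 2 they were 10 and 109. Against *Ezh2* KO, in which EZH1 is intact, 300 genes were called higher (2.29%) and 154 lower (1.18%). Those counts were 102 and 42 without *Ezh2* KO library 1, 67 and 21 without library 2, 402 and 503 without *Ezh2* Y726D library 1, and 99 and 70 without library 2.

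Chromosomes 12 and 4 stood apart from the other 17 autosomes. The 463 tested genes of chromosome 12 had a median log2 fold change of -0.30, and 353 of them (76.2%) were below 0. On the other 17 autosomes that share ran from 44.9% to 54.8%. On chromosome 12, 3 genes were called higher (beside 1.70% of all tested genes) and 9 lower (1.94%, beside 1.02%). The medians of its genes relative to the WT mean were -0.26 and -0.30 in the 2 *Ezh2* Y726D libraries, 0.12 and 0.05 in *Ezh1/2* dKO and 0.01 and -0.01 in *Ezh2* KO. Along the chromosome, windows of 20 Mb from the first base to 120 Mb had medians from -0.15 to -0.38. The genes called lower there held *Fbln5*, a protein of elastic fibres, and *Otub2*, a deubiquitinase, both named after their values were seen.

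Chromosome 4 had a median of -0.10 over 885 genes, of which 61.5% were below 0. Of these genes 5 were called higher and 16 lower (1.81%), beside 1.70% and 1.02% of all tested genes. The shift of chromosome 4 lay at the distal end: -0.17 from 120 to 140 Mb (257 genes) and -0.25 from 140 to 160 Mb (185 genes, 8 called lower). The windows before had medians from -0.11 to 0.02. The other 17 autosomes had medians between -0.03 and 0.03. Copy number was not measured in the files used.

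**Figure D5:**
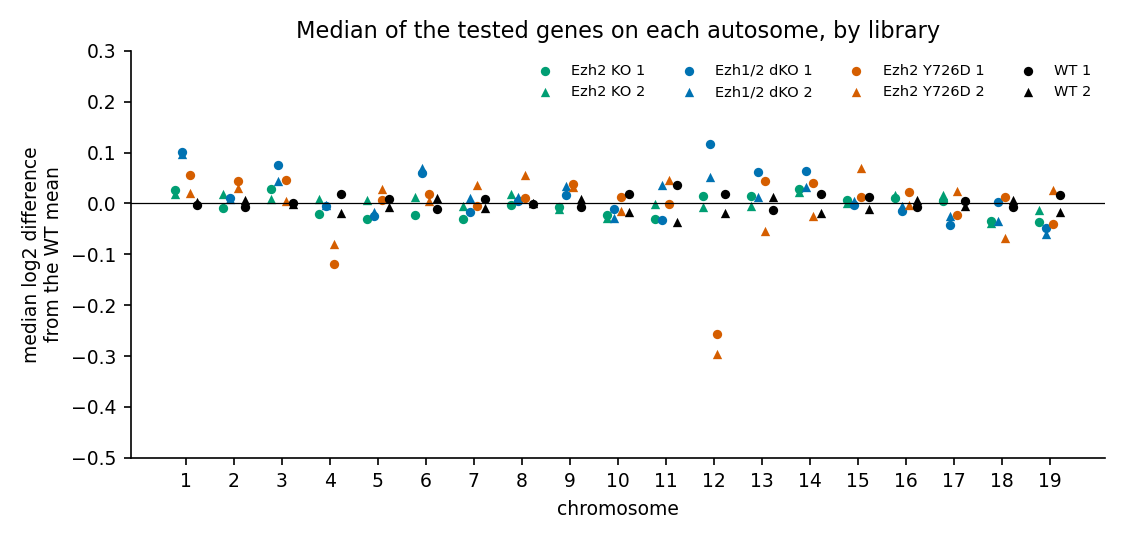
Points give, for each autosome and library, the median over its tested genes of the log2 difference from the mean of the 2 WT libraries. The 2 Ezh2 Y726D libraries (orange) lie at -0.26 and -0.30 on chromosome 12 and lower than the other lines on chromosome 4, and near 0 on the rest.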

How the data were processed

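SMART-seq libraries of 4 ESC lines, 2 per line, were aligned by the authors to mm9 with TopHat, PCR duplicates were removed with PICARD, reads were counted per gene with HTSeq-count without strand, and the deposited normalised counts (a signal divided by DESeq2 size factors) were the starting point. The authors called ChIP-seq peaks with MACS2 after alignment with Bowtie, 1 list per sample, and deposited each peak's −log10 p; peaks with a value of at least 10 within 5000 bp of a start site were assigned to genes. Columns of the authors' own comparisons (fold changes and p-values) were not used. Of 18055 genes, 16570 were placed by symbol and 854 by synonym, and 631 were not placed.

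Log2(normalised count + 1) was fitted with limma 3.58.1 (trend) in R 4.3.3 over all 8 libraries, for genes with a mean of at least 5, with Benjamini-Hochberg adjustment over all tested genes. Tests are two-sided. Calls needed an adjusted p below 0.1 together with a change of 1 or more on the log2 scale, a scale that understates low genes because of the pseudocount. All values were whole multiples of 1 read (100% within 0.01), and the whole reads recovered in this way served for alternative fits with edgeR 4.0.16 and DESeq2 1.42.0. Library totals ran from 3604123 to 5181553 reads, and the floor of 3 reads was 2.47 to 4.0 normalised counts; intervals (95%, exact) and floors cover counting error only. On data simulated for this comparison, limma recovered 182 of 200 genes changed 4-fold with 16 false calls among 13840 genes, and made 0 calls among 13804 genes with no change. The changed genes were drawn from those with a mean of at least 20, and each gene had 1 spread for all libraries. These figures therefore do not cover changed genes of lower mean or single libraries that stand apart. Replicate numbers were not used to pair samples. Python 3.11.15 was used for the joins.

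The genes and lists were chosen with earlier results of these data known. Named were *Ezh1* and *Ezh2*, the 12 largest rises and falls among called genes whose *Ezh2* Y726D libraries both lay beyond WT, and from each list up to 4 called members, or with fewer than 2 called, the members of highest mean up to 2 in all. Any other gene with values was chosen after its values were seen. Alternatives were leaving out each library, fits of 4 libraries, other pseudocounts, filters, scalings and peak limits. The result of 1 gene is not reported here.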

Additional observations from a re-analysis of the deposited data

Results flagged for a closer look

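For 15 named genes the change from WT differed between *Ezh2* Y726D and *Ezh1/2* dKO when the lines were compared directly (limma, adjusted p under 0.1, both sharing the WT libraries). *Ezh2* itself, deleted in the dKO, stood 7.82 higher on the log2 scale in *Ezh2* Y726D, and *Bmp4* 1.07 higher. The other 13 were lower in *Ezh2* Y726D. Over all tested autosomal genes, 0.191% were called higher and 1.37% lower in this comparison. Apart from *Ezh2*, the genes were named because they were called against WT in the same *Ezh2* Y726D libraries, so their number is a description. *Serpinf1* differed by -5.69, *P2rx3* by -5.43, *Cyp2b23* by -4.70, *Slc7a11* by -4.62 and *Mbl2* by -4.34. *Dppa3* differed by -3.98, *Inhbe* by -3.85, *Creb5* by -3.80 and *Tdpoz3* by -3.71. *Zscan4d* differed by -3.14, *Plagl1* by -3.08, *Atf3* by -3.06 and *Zscan4c* by -3.03. In *Slc7a11* the dKO libraries (464 and 425) lay above both WT libraries and those of *Ezh2* Y726D below them, and in *Dppa3* likewise. Over all tested genes, the direct comparison called 14 genes lower without *Ezh1/2* dKO library 1 and 9 without library 2.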

How the results depend on the processing

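Of 48 called named genes, 14 kept their call under every alternative run and 26 under every alternative except the fits of 4 libraries, and 0 changed direction. The last count was nearly fixed in advance, because both *Ezh2* Y726D libraries lay beyond both WT libraries in every called gene. The counts moved most with the libraries used to estimate the spread, and beyond that the cause of a change was not tested. With the 4 libraries of a comparison alone, 20 genes were called higher and 8 lower in *Ezh2* Y726D than in WT, 113 lower than in *Ezh1/2* dKO, and 177 higher and 94 lower than in *Ezh2* KO; among SUZ12-bound genes 19 were called higher and 0 lower against WT. At an adjusted p under 0.05 the counts against WT were 115 and 73. Leaving out 1 library gave from 116 to 231 genes higher and from 83 to 303 lower against WT, 1 to 60 higher and 9 to 410 lower against dKO, 67 to 402 higher and 21 to 503 lower against *Ezh2* KO, and 76 to 131 higher and 9 to 41 lower among SUZ12-bound genes. Against dKO, DESeq2 called 51 genes higher, no filter gave 16 and quantile normalisation 49. Quantile normalisation gave 182 genes higher than in *Ezh2* KO.

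The median of SUZ12-bound genes stayed above 0: it was 0.47 with edgeR and 0.47 with upper-quartile rescaling, 0.38 at a mean count of at least 20, 0.36 with a pseudocount of 5, 0.32 after quantile normalisation, 0.49 for peaks within 1 kb, 0.56 for peaks of p at most 1e-20 (11 genes called lower) and 0.40 to 0.45 when leaving out a library. The *Hox* median was 1.59 with a pseudocount of 5. The median of the Polycomb loci was 4.11 with DESeq2, 4.08 with edgeR, 4.19 at a mean count of at least 20, 2.17 with no filter, 4.07 and 1.97 with pseudocounts of 0.5 and 5, 3.15 after quantile normalisation and 3.20 to 3.94 when leaving out a library. The chromosome 12 median was -0.27 with no filter and -0.31 to -0.26 when leaving out a library.

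Replicate numbers are not stated to mark shared cultures or days, and differences between libraries 1 and 2 correlated from -0.41 to 0.29 between lines. A replicate block over 8 libraries called 193 genes higher and 118 lower. Chosen after seeing the data, a replicate block on the 4 libraries called 73 and 80, of which 48 and 10 were SUZ12-bound. The crossed pairing of the 4 libraries called 563 and 312, of which 337 and 39 were SUZ12-bound. Low depth limits genes near the floor of 3 reads, for which absence of a call shows no absence of change.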

Other observations

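A few more genes called lower in *Ezh2* Y726D than in WT (limma) are given as single genes, chosen after their values were seen and because they were called, so they stand for no group. *Asns* (-0.26), *Trib3* (-1.72), *Chac1* (-2.81) and *Sesn2* (-0.85) of the stress-response list were not called. *Gpt2*, an alanine aminotransferase, fell from 1503 and 1027 to 406 and 139 (-2.38 ± 0.42, adjusted p = 0.0328), and *Aldh1l2*, a mitochondrial folate enzyme, from 330 and 410 to 109 and 36.9 (-2.51 ± 0.44, adjusted p = 0.0324). *Slc1a4*, a neutral amino acid transporter, fell from 803 and 920 to 332 and 45.9 (-2.79 ± 0.67, adjusted p = 0.0829), and *Ddit4*, an inhibitor of mTORC1 signalling, from 207 and 178 to 51.7 and 40.3 (-2.05 ± 0.26, adjusted p = 0.0113). *Fgf21*, a stress-induced hormone gene, had 12 and 2.89 in WT and no read in *Ezh2* Y726D. In *Ezh1/2* dKO, *Gpt2* stood at 681 and 553, *Aldh1l2* at 387 and 540, *Slc1a4* at 828 and 933 and *Ddit4* at 209 and 232.

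The genes called higher against WT had a median log2 difference of 1.92 between *Ezh1/2* dKO and WT and of 0.59 between *Ezh2* KO and WT, and those called lower of -0.30 and -0.24. All these medians share the WT libraries with the comparison that chose the genes, so they are given as values only.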
